A study of Mus musculus with 8 samples.

Results

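The 33 genes described here encode proteins of the lysosome: soluble enzymes that digest lipids, sugars, peptides and nucleic acids, proteins of the lysosomal membrane, and Tfeb, a transcription factor of lysosomal genes. They were taken by symbol from the deposited table, which lists 55450 mouse genes, and all 33 were matched by their Ensembl identifiers. The rule picks genes by symbol and not by their values. The 33 genes lie on 13 chromosomes, with 7 of them on chromosome 8 and 3 on the X chromosome. RNA came from cultures that the labels call bone marrow-derived dendritic cells, grown from mice with dry eye in Sjögren's syndrome (SS), in which the immune system attacks the glands that make tears and saliva. The control cultures received phosphate-buffered saline, called vehicle here, and the treated cultures received recombinant S100A8/A9, a pair of calcium-binding proteins that myeloid cells release in inflammation. All cultures of both groups thus came from diseased mice and no healthy control was part of the design. The mouse strain, the way the disease arose, the age, the dose and the time of treatment are not given in the sources used here. Each group held 4 libraries numbered 1 to 4. The values are taken as FPKM, read fragments scaled to the length of the transcript and the depth of the library.

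Lysosomes receive material by endocytosis, phagocytosis and autophagy and break it down with acid hydrolases, most of which reach the organelle through mannose 6-phosphate receptors. Inherited loss of single hydrolases or membrane proteins causes the lysosomal storage diseases, in which the undigested substrate builds up. In dendritic cells and macrophages the same organelle cuts proteins into the peptides that MHC class II molecules present to T cells. TFEB and its relatives TFE3, TFEC and MITF bind a short element with the core CACGTG in the promoters of many lysosomal genes when nutrients are scarce or the lysosome is damaged, and the kinase mTORC1 holds TFEB in the cytoplasm otherwise.

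Replicates 1 to 3 of both groups stood in 1 table, with FPKM sums from 282921 to 303660 and 11180 to 11487 genes at 1 FPKM or more. Replicate 4 of both groups stood in a second, separately made table of 24848 genes with FPKM sums of 344166 for vehicle and 331268 for S100A8/A9, so tests used replicates 1 to 3 and replicate 4 is given beside them. The labels do not say that replicates came from separate animals or cultures, so the p-values measure the spread between these libraries, which may be technical. The read depth of replicates 1 to 3 is unknown. In these bulk samples fewer cells of a type and less RNA per cell cannot be told apart. Of 12 dendritic cell markers, Cd209a was listed at 0 FPKM in all 6 libraries of the first table and Flt3, Dpp4, Xcr1 and Clec9a were under 1 FPKM in all 6. Cd74 at 2530 to 3823 FPKM, H2-Ab1 at 327 to 671 FPKM, Itgax at 47.2 to 66.9 FPKM and Ccr7 at 141 to 227 FPKM were present. Csf1r, the receptor for the macrophage growth factor, was at 109 to 213 FPKM, and the titles of the samples abbreviate the cells as macrophages are commonly abbreviated, so the cell type label rests on part of its markers.

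The promoters show how far the TFEB element is shared among these genes. RefSeq promoter windows of build GRCm38.p6, 300 bases each with 250 before and 50 after the annotated start, were found for 30 of the 33 genes, with 33 windows in all. Asah1, Plbd2 and Galns had no window. CACGTG, which reads the same on both strands, was present in the windows of 8 genes, or 24.2% of the 33 windows, against 7.15% of all 32851 windows. The longer TCACGTG or its reverse complement CACGTGA, which contains CACGTG, was in the same 8 windows and in 3.77% of all windows. The matches are shown because they carry the core letters of the element that TFEB and its relatives are known to bind. Each is printed 5′ to 3′ on the strand of the gene with CACGTG in capitals and 12 bases or fewer on either side.
Lamp1, chr8:13159088-13159160, forward strand: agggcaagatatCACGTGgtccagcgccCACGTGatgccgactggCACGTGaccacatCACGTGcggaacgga
Mcoln1, chr8:3500436-3500465, forward strand: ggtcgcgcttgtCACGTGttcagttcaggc
Mcoln1, chr8:3500462-3500491, forward strand: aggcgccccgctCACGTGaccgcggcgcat
Gla, chrX:134601182-134601244, reverse strand: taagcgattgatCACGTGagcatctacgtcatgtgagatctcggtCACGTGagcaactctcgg
Glb1, chr9:114401018-114401047, forward strand: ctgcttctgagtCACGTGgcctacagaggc
Naglu, chr11:101070009-101070038, forward strand: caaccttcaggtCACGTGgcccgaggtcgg
Sgsh, chr11:119355522-119355551, reverse strand: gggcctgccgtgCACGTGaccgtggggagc
Gaa, chr11:119267811-119267840, forward strand: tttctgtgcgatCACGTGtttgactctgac
Ifi30, chr8:70766842-70766871, reverse strand: atccaaaaacttCACGTGaccagacatgct

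Lamp1 had 4 matches, which began 61, 45, 28 and 15 bases before its start, and 8 windows, or 0.0244% of all windows, held at least 4. Mcoln1 and Gla had 2 matches each, and 0.594% of all windows held at least 2. The other 5 genes had 1 match each, from 29 bases before the start in Sgsh to 196 bases before it in Ifi30. All these distances are from the RefSeq start. In the GENCODE annotation Mcoln1, Naglu and Sgsh begin farther out. There 1 of the 2 Mcoln1 matches and the Naglu match lie inside the gene, and the Sgsh match spans its start. A match is a description of letters and no binding was measured. In 22 genes with a window these letters were not found, among them Psap, Cd68 and Tfeb itself, which says only that they are not in these windows.

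**Figure D1:**
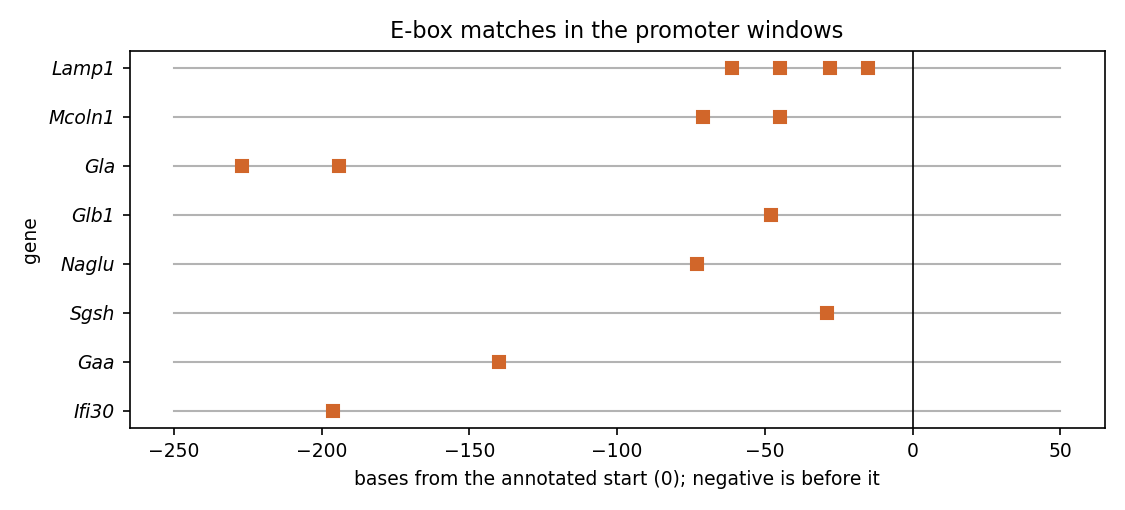
Position of each CACGTG match (orange squares) in the promoter windows of the 8 genes that hold one; the horizontal axis gives bases from the annotated start and the grey line spans the window from 250 bases before to 50 after it. Lamp1 holds 4 matches within 61 bases of its start, and the match farthest out is 1 of the 2 in Gla, at 227 bases.

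All 33 genes were expressed in every library, and their levels spanned from 3.05 to 5471 FPKM in the first table. By the mean of its 6 libraries, 10 genes reached 100 FPKM, 17 lay between 10 and 100 FPKM and 6 were under 10 FPKM. Psap, which encodes prosaposin, the precursor of 4 small activator proteins of sphingolipid breakdown, ranked first in both tables with a mean of 4793 FPKM. Psap gave between 64.0% and 65.8% of the summed FPKM of the 33 genes in replicates 1 to 3, and 70.6% and 70.0% in replicate 4. Laptm5 followed at a mean of 395 FPKM and Cd68 at 384 FPKM, and the libraries of these 2 genes overlapped. The lowest levels were those of glycosaminoglycan enzymes, with Galns at a mean of 7.73, Sgsh at 4.28 and Arsb at 3.81 FPKM. Together the 33 genes made up 2.25% to 2.77% of the FPKM sum in the first table and 3.22% and 3.23% in the second.

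**Figure D2:**
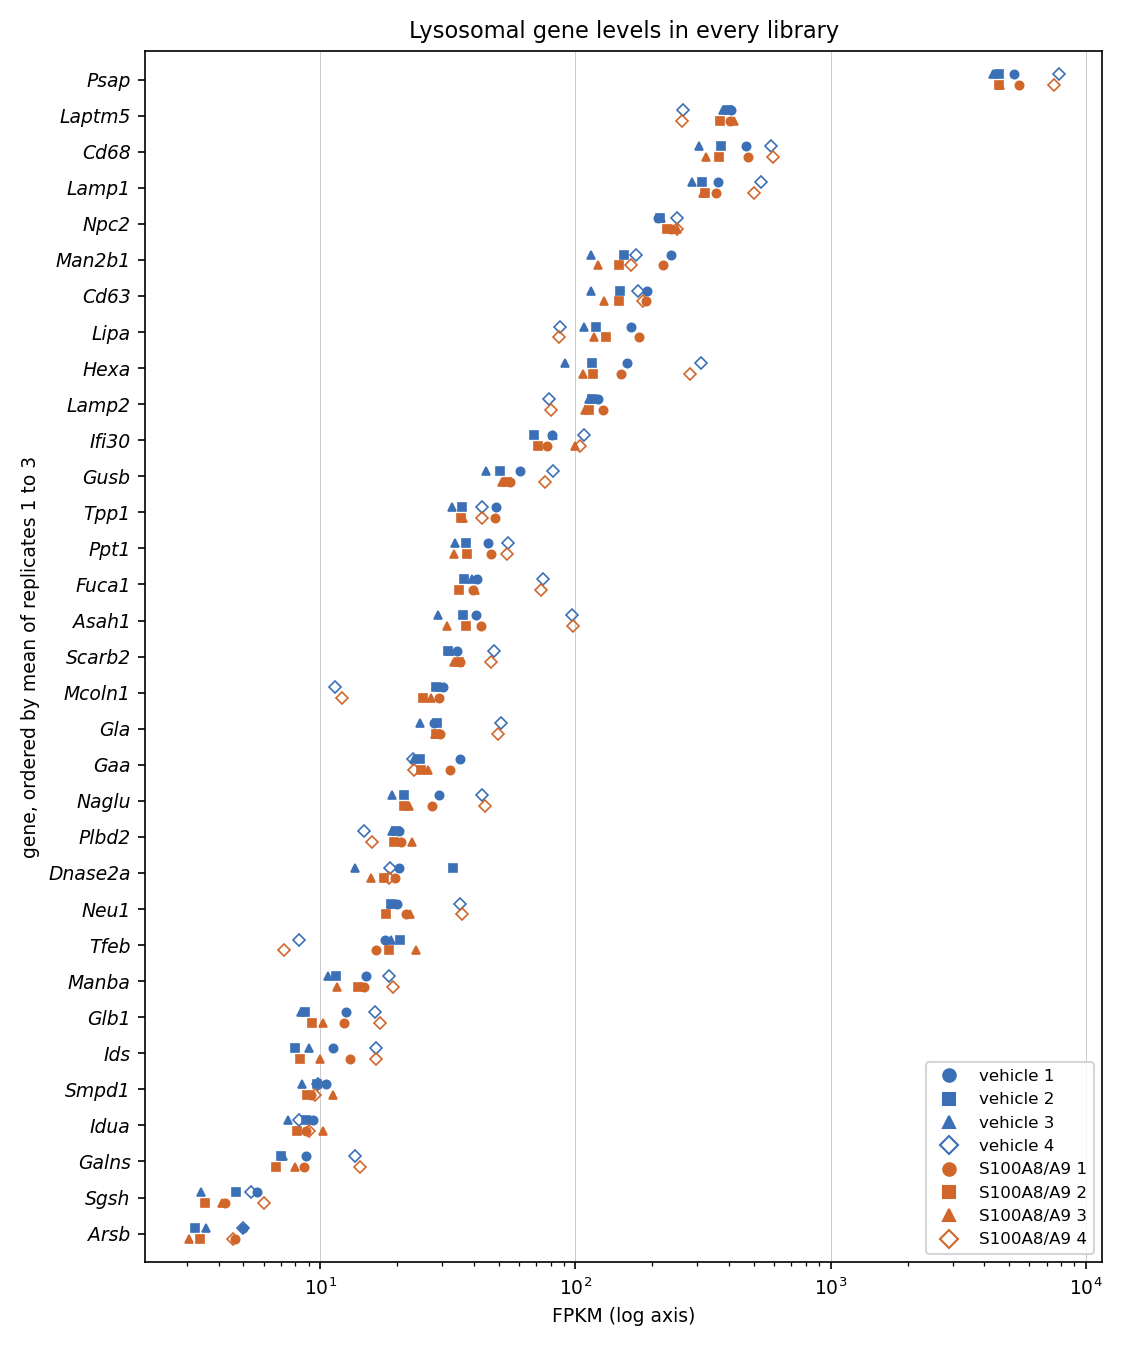
FPKM (log axis) of each of the 33 genes in the 8 libraries, vehicle in blue and S100A8/A9 in orange, with filled circles, squares and triangles for replicates 1, 2 and 3 and open diamonds for replicate 4 from the second table. Psap lies at 4322 FPKM or more in every library, more than any other of the 33 genes, and the colours overlap for 32 of the 33 genes in replicates 1 to 3.

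The rank order was not identical in the second table. Hexa had rank 9 in the first table and rank 4 in the second, where its mean was 295 FPKM. Tfeb had a mean of 19.4 FPKM in the first table and 7.73 FPKM in the second, and Mcoln1 28.3 and 11.8 FPKM. The tables were made separately, so these gaps between tables cannot be told apart from how the values were computed.

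The comparison of S100A8/A9 with vehicle asked which programs the protein pair engages in these cells. For the lysosomal genes it gave no call: 0 of 33 changed at an adjusted p under 0.05 in limma, against 0% of the 11387 genes tested. With the replicate number as a block, limma called 0 of 33 against 0.518% of all genes, or 59 genes of which 57 were higher with S100A8/A9, a count that was 3 after quantile normalization and 3 with median-of-ratios scaling. At an unadjusted p under 0.05 limma had 0 of the 33 genes and 344 of all genes without the block, and 2 of the 33 and 908 of all with it. The median log2 change of the 33 genes was 0.05, against 0.02 over all genes tested. The change was above 0 in 26 genes and below 0 in 7, and 13 of these signs turned after quantile normalization. The 12 interferon-stimulated genes listed beside them were chosen with earlier results of these data known, so their rise is no independent contrast. Their FPKM summed to 158, 161 and 94.3 in vehicle libraries 1, 2 and 3. With S100A8/A9 the sums were 557, 412 and 210 FPKM. Of these 12, 10 rose past the threshold in the blocked limma fit and 0 in the fit with group only. Since quantile normalization and median-of-ratios scaling left 3 calls each over all genes, most of these 10 were not kept there. In replicate 4 the same sums were 57.3 and 68.5 FPKM.

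The intervals show how large a change of the lysosomal genes these libraries could have missed, on the scale of FPKM + 1. With the block, 95% intervals of the fold change in FPKM + 1 stayed within 1.5-fold either way for 32 of the 33 genes. For 30 they stayed within 1.25-fold. The exceptions to the narrower bound were Dnase2a, Idua and Sgsh. Without the block 30 genes stayed within 1.5-fold. The added 1 narrows the intervals of low genes, so in FPKM fewer genes may stay within these bounds. The ratio given per gene is the geometric mean over pairs 1 to 3 of S100A8/A9 divided by vehicle in FPKM, whereas intervals come from limma on log2(FPKM + 1) with the block.

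**Figure D3:**
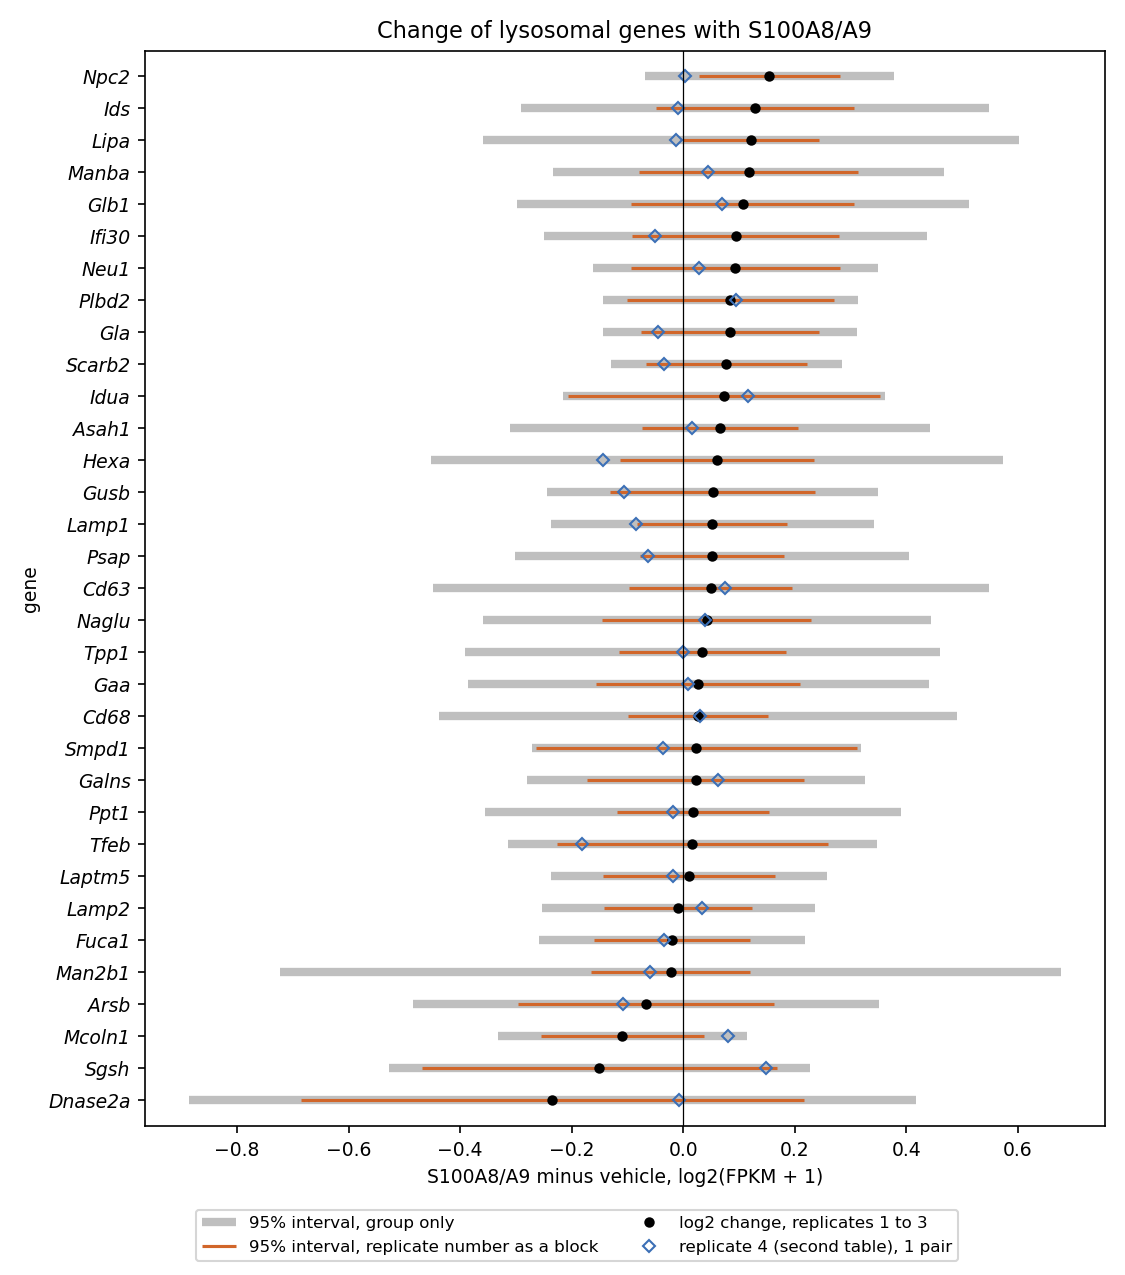
Difference of S100A8/A9 from vehicle in log2(FPKM + 1) for each of the 33 genes (black points, replicates 1 to 3), with 95% intervals from limma with group only (grey) and with the replicate number as a block (orange); blue diamonds give the single replicate 4 pair. The points lie between -0.23 for Dnase2a and 0.15 for Npc2, and with the block the intervals of 31 genes cross 0.

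The pairs differed in how many of the genes were higher with S100A8/A9. In pair 1 it was 12 of 33, or 36.4% against 48.4% of all genes, and in pair 2 it was 16, or 48.5% against 51.6%. In pair 3 it was 29, or 87.9% against 66.7% of all genes, with a median log2 ratio of 0.15 against 0.08. Pair 4 of the second table had 15 of 33 higher, or 45.5% against 55% of all genes. Its ratios ran from 0.868 for Tfeb to 1.13 for Sgsh, and 31 of 33 lay between 0.9 and 1.1. The FPKM sum of library 3 was 300289 with S100A8/A9 and 292065 with vehicle, and its part in the pair 3 result was not tested.

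Replicate number separated these genes more than treatment did by the count of calls. What a number marks is not stated in the labels, but libraries that share one deviated from their group means together. An F-test in limma over the 3 numbers, with group as a covariate, called 11 of the 33 genes, or 33.3%, against 12.7% of all genes tested. In order of adjusted p, from 0.0026 to 0.048, they were Man2b1, Lipa, Cd68, Cd63, Hexa, Tpp1, Ppt1, Asah1, Ids, Gaa and Naglu. In all 11, both libraries numbered 1 lay above the other 4. The means of the number 1 libraries were between 1.27 and 1.92 times those of the number 3 libraries. Both number 1 libraries lay above the other 4 in 19 of the 33 genes, against 13.7% of all genes. Tfeb was the 1 gene of the 33 in which both lay below, and the share of all genes with both below is not given here. The F-test called 0 of the 33 and 314 of all genes when the number 1 libraries were left out. When no filter on low values was set, it called 0 of the 33 and 18 of all genes.

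Contrasts between numbers gave the direction. At an adjusted p under 0.05 in limma, 15 of the 33 genes were higher in number 1 than in number 3, against 6.78% of all genes. None of the 33 was lower, against 12% of all genes; the means of Npc2, Plbd2, Ifi30 and Tfeb were lower in number 1 without passing the threshold. The 15 were the F-test genes without Ids, whose adjusted p was 0.055, and in addition Lamp1, Psap, Manba, Glb1 and Arsb. Cd68, Lipa, Ids, Man2b1 and Tpp1 were higher in number 1 than in number 2, or 5 of 33 against 2.18% of all genes. None was higher in number 2 than in number 3, against 0.887%. The median log2 difference of number 1 from number 3 was 0.27 over the 33 genes and -0.08 over all genes. It was between 0.24 and 0.37 over the 33 genes under 3 other scalings, which called 13 to 18 of them higher and 0 lower.

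**Figure D4:**
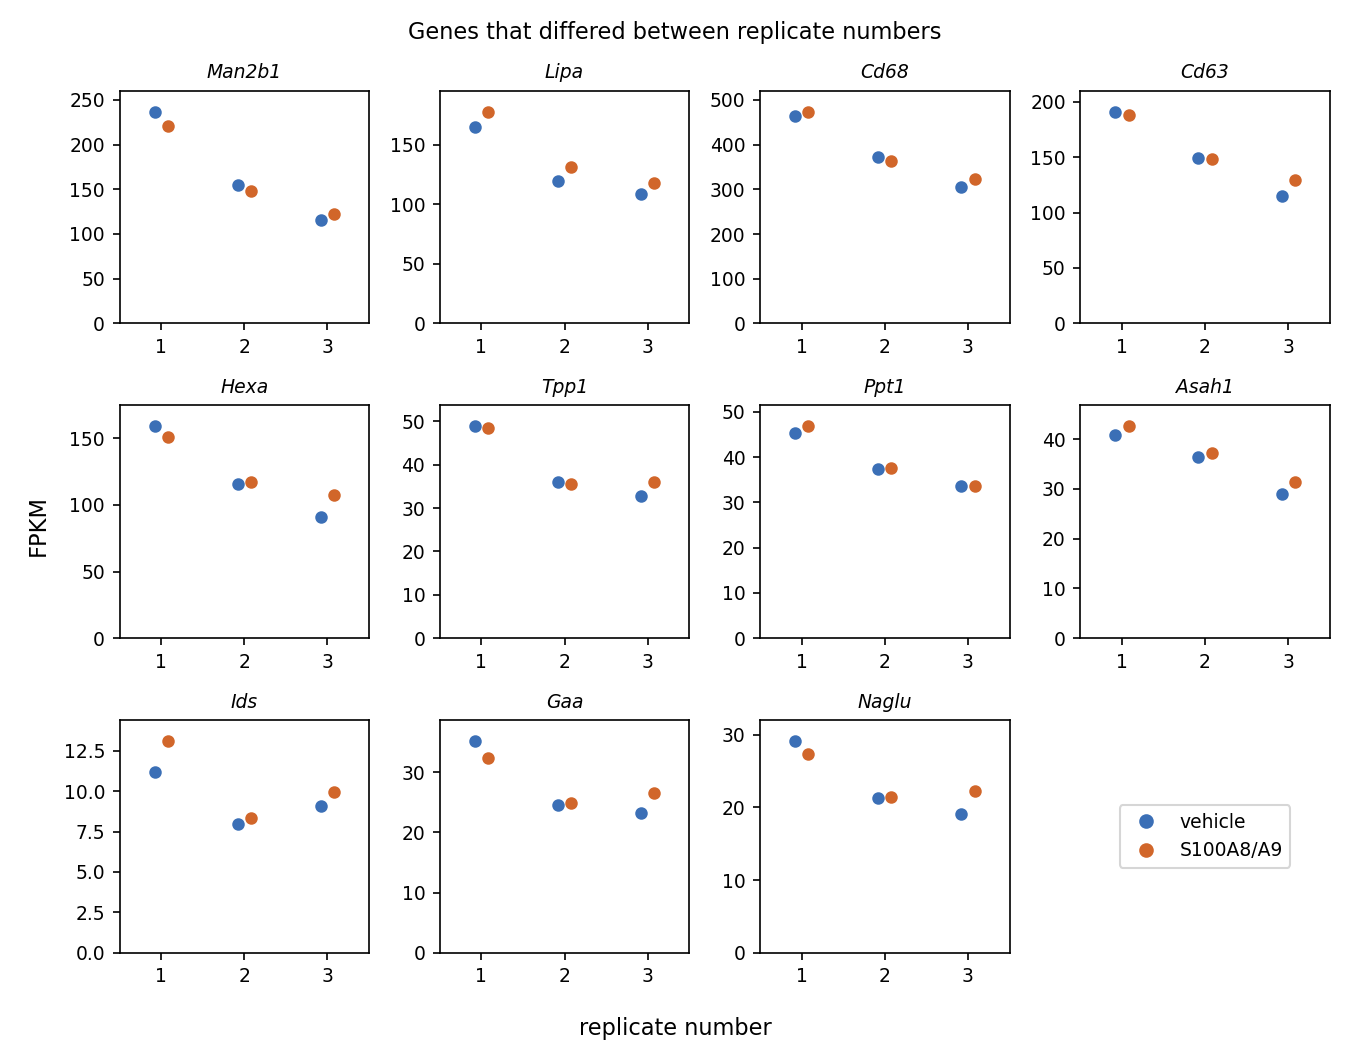
FPKM of the 11 genes called between replicate numbers, by replicate number on the horizontal axis, with vehicle in blue and S100A8/A9 in orange and axes from 0. In each panel both points of number 1 lie above the other 4, and the points of the 2 groups at the same number lie close together.

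The membrane proteins were led by Laptm5, Cd68 and Lamp1. Lamp1 (ENSMUSG00000031447, chr8:13159161-13175338 in mm10) and Lamp2 encode the heavily glycosylated proteins that line the inside of the lysosomal membrane. Lamp1 had 361, 313 and 285 FPKM in vehicle libraries 1, 2 and 3, 354, 322 and 315 FPKM with S100A8/A9, and 532 and 502 FPKM in the vehicle and treated libraries of replicate 4. Values of the other genes follow in the same order. The number 1 libraries were the highest in both groups, the groups overlapped, and the pairs were split over direction. The ratio with treatment was 1.04 (95% interval 0.944 to 1.14). Number 1 exceeded number 3 by 0.25 on the log2 scale (limma adjusted p = 0.049). Lamp1 overlaps exons of Grtp1 on the other strand.

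Cd68, a LAMP relative of mononuclear phagocytes, had 465, 372 and 305 FPKM with vehicle, compared with 474, 364 and 324 FPKM with S100A8/A9. In replicate 4 it had 582 and 595 FPKM. Both groups followed the same order over the numbers, so that the groups overlapped fully, with a treatment ratio of 1.02 (0.934 to 1.11) and a limma adjusted p of 0.0082 between numbers. Cd63, a tetraspanin of late endosomes and exosomes, had 191, 149 and 115 FPKM with vehicle, next to 188, 149 and 129 FPKM with S100A8/A9, and 175 and 185 FPKM in replicate 4. It showed the same order, with number 1 at 1.56 times number 3 and a limma adjusted p of 0.0098.

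Laptm5, a membrane protein of blood cells that sends receptors to the lysosome, did not show this order. Its libraries had 408, 397 and 377 FPKM with vehicle, next to 403, 369 and 419 FPKM with S100A8/A9, and 265 and 261 FPKM in replicate 4. They lay close together, with a ratio of 1.01 for treatment and of 1.02 for number 1 against number 3. Mcoln1 encodes the calcium channel TRPML1, which releases calcium from the lysosome. It had 30.2, 28.3 and 29.7 FPKM with vehicle, next to 29.1, 25.3 and 27.2 FPKM with S100A8/A9, and 11.4 and 12.2 FPKM in replicate 4. Mcoln1 was the 1 gene of the 33 that was lower with treatment in all of pairs 1 to 3, and the share of all genes is not given here. In pair 4 it was higher, the groups overlapped, and the ratio of 0.925 had an interval of 0.838 to 1.03. Lamp2 and Scarb2, the receptor that carries glucocerebrosidase to the lysosome, had means of 117 and 33.7 FPKM and treatment ratios of 0.994 and 1.06.

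Among the genes of sphingolipid and lipid breakdown, Npc2 and Lipa were the 2 with an unadjusted p under 0.05 with the block. Npc2 (ENSMUSG00000021242, chr12:84754562-84773152) encodes the soluble protein that hands cholesterol to the membrane for export from the lysosome. It had 211, 215 and 217 FPKM with vehicle, next to 237, 229 and 251 FPKM with S100A8/A9, and 249.7 and 250.3 FPKM in replicate 4. Every treated library of replicates 1 to 3 lay above every vehicle library, whereas the pair of replicate 4 was level. Npc2 was the 1 gene of the 33 with no overlap upward, against 4.71% of all genes, and 0 of 33 had none downward, against 1.94%. Its ratio was 1.11 (1.02 to 1.22), and limma gave an adjusted p of 0.485 (block) and 1 (group only).

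Lipa, the acid lipase that frees cholesterol and fatty acids from lipoproteins, had 165, 119.9 and 108 FPKM with vehicle, compared with 178, 132 and 118 FPKM with S100A8/A9. Replicate 4 had 86.8 and 86.0 FPKM. The treated library was the higher one in each of pairs 1 to 3 while the groups overlapped, and the ratio was 1.09 (1.00 to 1.18), for which the blocked limma fit gave an adjusted p of 0.625. Between numbers Lipa gave the second smallest limma adjusted p of the 33 genes, 0.0060, with number 1 at 1.52 times number 3.

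Psap (ENSMUSG00000004207, chr10:60277627-60302597) had 5245, 4556 and 4322 FPKM with vehicle, compared with 5471, 4558 and 4609 FPKM with S100A8/A9. Replicate 4 had 7818 and 7486 FPKM. It was higher with treatment in pairs 1 to 3 and lower in pair 4, with a ratio of 1.04 (0.948 to 1.13). Both number 1 libraries were the highest of the first table, and number 1 exceeded number 3 by 0.26 on the log2 scale (limma adjusted p = 0.039), though the F-test over the 3 numbers gave 0.068.

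Hexa, the alpha subunit of the enzyme that removes the last sugar of GM2 ganglioside and is lost in Tay-Sachs disease, had 159, 116 and 90.8 FPKM with vehicle. With S100A8/A9 it had 151, 117 and 107 FPKM, and in replicate 4 309 and 280 FPKM. The number order was the same in both groups, with a limma adjusted p of 0.015. Asah1, acid ceramidase, had 40.8, 36.4 and 29.0 FPKM with vehicle, next to 42.6, 37.2 and 31.4 FPKM with S100A8/A9, and 96.9 and 97.9 FPKM in replicate 4. It was higher with treatment in 4 of 4 pairs. Among the 33 genes only Npc2, nearly level in pair 4, was so too, and the share of all genes is not given here. The steps of Asah1 were small, with a ratio of 1.05 (0.95 to 1.15). Number 1 was 1.38 times number 3, with a limma adjusted p of 0.023 over the numbers.

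Ppt1 removes fatty acids from proteins and is lost in an infantile form of neuronal ceroid lipofuscinosis. It had 45.3, 37.3 and 33.6 FPKM with vehicle, next to 46.8, 37.6 and 33.6 FPKM with S100A8/A9, and 54.5 and 53.8 FPKM in replicate 4. The 2 groups were nearly equal at each number, and the numbers differed with a limma adjusted p of 0.022. Glb1, lysosomal beta-galactosidase, had 12.7, 8.71 and 8.38 FPKM with vehicle, compared with 12.4, 9.31 and 10.2 FPKM with S100A8/A9. Its replicate 4 libraries had 16.3 and 17.2 FPKM. Again the number 1 libraries were the highest, with number 1 above number 3 at a limma adjusted p of 0.042 and 0.056 over the 3 numbers.

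Smpd1, acid sphingomyelinase, was the lowest gene of the lipid group. It had 10.6, 9.73 and 8.46 FPKM with vehicle, compared with 9.21, 8.87 and 11.2 FPKM with S100A8/A9. Replicate 4 had 9.80 and 9.54 FPKM. Treatment gave lower values in pairs 1, 2 and 4 and a higher value in pair 3, and the ratio of 1.02 had an interval of 0.832 to 1.24. Gla, the alpha-galactosidase lost in Fabry disease, Neu1, a sialidase, and Plbd2, a phospholipase B-like protein, had means of 27.9, 20.1 and 20.4 FPKM. Their treatment ratios were 1.06, 1.07 and 1.06, and none of the 3 was called between numbers. Ppt1 shares exon sequence with Cap1, Hexa with Tmem202, Plbd2 with Sds and Glb1 with Tmppe. Tmppe lies on the same strand as Glb1, so strand cannot tell their shared reads apart. Cap1, Tmem202 and Sds lie on the other strand. Where the reads were counted without regard to strand, those of these pairs cannot be told apart either.

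The 7 genes of glycosaminoglycan breakdown, which are lost in the mucopolysaccharidoses, included the 3 lowest of the 33 genes, Galns, Sgsh and Arsb. Ids, iduronate 2-sulfatase, had 11.2, 7.97 and 9.07 FPKM with vehicle, next to 13.1, 8.33 and 9.96 FPKM with S100A8/A9, and 16.6 and 16.5 FPKM in replicate 4. Number 2 was here the lowest in both groups, and treated libraries were higher in pairs 1 to 3 with an interval of 0.967 to 1.24 for the ratio. The numbers differed with a limma adjusted p of 0.031. Naglu, which cuts N-acetylglucosamine from heparan sulfate, had 29.1, 21.4 and 19.0 FPKM with vehicle, next to 27.3, 21.4 and 22.2 FPKM with S100A8/A9, and 43.1 and 44.3 FPKM in replicate 4. Number 1 was the highest in both groups at 1.37 times number 3, with a limma adjusted p of 0.048 that passed the threshold narrowly.

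Sgsh, heparan N-sulfatase, had 5.65, 4.67 and 3.43 FPKM with vehicle, compared with 4.23, 3.55 and 4.13 FPKM with S100A8/A9. In replicate 4 it had 5.36 and 6.05 FPKM. Its direction was split, lower with treatment in pairs 1 and 2 and higher in pairs 3 and 4, and its ratio of 0.882 had an interval of 0.723 to 1.12. Arsb, the sulfatase of dermatan and chondroitin sulfate, had 4.97, 3.24 and 3.56 FPKM with vehicle, next to 4.64, 3.39 and 3.05 FPKM with S100A8/A9, and 4.99 and 4.55 FPKM in replicate 4. Number 1 was the highest in both groups and exceeded number 3 at a limma adjusted p of 0.047. Sgsh and Arsb also share exon sequence with other genes.

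Idua, alpha-L-iduronidase, had 9.33, 8.79 and 7.51 FPKM with vehicle, compared with 8.81, 8.09 and 10.2 FPKM with S100A8/A9. Replicate 4 had 8.24 and 9.01 FPKM. Its treated libraries were lower in pairs 1 and 2 and higher in pairs 3 and 4, and its interval of 0.867 to 1.28 was the one reaching highest among the 33 genes. Idua overlaps Dgkq and Slc26a1. Galns, the galactosamine 6-sulfatase, had 8.82, 7.02 and 7.14 FPKM with vehicle, next to 8.65, 6.74 and 7.995 FPKM with S100A8/A9, and 13.7 and 14.3 FPKM in replicate 4. Its groups overlapped, with a ratio of 1.02. Gusb, beta-glucuronidase, was the highest of these 7 genes at a mean of 52.9 FPKM, with a treatment ratio of 1.04.

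The enzymes that digest glycogen and the sugar chains of glycoproteins included the gene with the widest gap between numbers. Man2b1 (ENSMUSG00000005142, chr8:85083270-85098282) encodes lysosomal alpha-mannosidase, lost in alpha-mannosidosis. It had 237, 154 and 115 FPKM with vehicle, next to 221, 149 and 123 FPKM with S100A8/A9, and 172 and 165 FPKM in replicate 4. Both number 1 libraries stood well above the rest and both number 3 libraries were the lowest. Number 1 exceeded number 3 by 0.94 on the log2 scale, with a limma adjusted p of 0.0010, whereas the treatment ratio was 0.984 (0.892 to 1.09).

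Gaa, the acid glucosidase that digests glycogen and is lost in Pompe disease, had 35.2, 24.6 and 23.2 FPKM with vehicle. With S100A8/A9 it had 32.4, 24.8 and 26.5 FPKM, and in replicate 4 23.1 and 23.2 FPKM. Number 1 was the highest in both groups, with a limma adjusted p of 0.040 over the numbers. Manba, beta-mannosidase, had 15.1, 11.5 and 10.7 FPKM with vehicle, next to 14.8, 14.1 and 11.7 FPKM with S100A8/A9, and 18.6 and 19.2 FPKM in replicate 4. It followed the same order more weakly, with number 1 above number 3 at a limma adjusted p of 0.043 and 0.096 over the 3 numbers. Fuca1, alpha-fucosidase, had a mean of 38.7 FPKM and ratios of 0.986 for treatment and 1.02 for number 1 against number 3.

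Of the genes for breakdown of peptides, disulfide bonds and DNA, Tpp1 differed between numbers. Tpp1, tripeptidyl peptidase, had 48.8, 35.98 and 32.9 FPKM with vehicle, next to 48.5, 35.6 and 36.1 FPKM with S100A8/A9, and 42.9 and 42.8 FPKM in replicate 4. Number 1 stood above the other numbers in both groups, with a limma adjusted p of 0.018. Ifi30 encodes GILT, the interferon-inducible reductase that opens disulfide bonds of proteins for class II presentation. It had 80.6, 68.7 and 81.4 FPKM with vehicle, next to 77.0, 71.6 and 99.5 FPKM with S100A8/A9, and 108 and 104 FPKM in replicate 4. The highest library was treated library 3, pairs 1 and 4 were lower with treatment and pairs 2 and 3 higher, and the ratio was 1.07 (0.938 to 1.21). The annotation lists Ifi30 as a processed transcript, and it overlaps a gene on the other strand.

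Dnase2a (ENSMUSG00000003812, chr8:84908560-84922915), the acid DNase that digests DNA of engulfed cells, had the lowest treatment ratio, 0.845. It had 20.4, 33.05 and 13.6 FPKM with vehicle, next to 19.6, 17.9 and 15.9 FPKM with S100A8/A9, and 18.8 and 18.7 FPKM in replicate 4. Vehicle library 2 stood far above the other 5 libraries of the first table, which overlapped between groups, and the interval was 0.622 to 1.16. Without vehicle library 2 the log2 change was 0.08 in place of -0.23. Dnase2a overlaps exons of Mast1 on the other strand.

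Tfeb had 18.0, 20.6 and 19.0 FPKM with vehicle, next to 16.5, 18.6 and 23.7 FPKM with S100A8/A9, and 8.28 and 7.19 FPKM in replicate 4. Treated libraries were lower in pairs 1, 2 and 4 and higher in pair 3, and the ratio was 1.01 (0.855 to 1.20). Its number 1 libraries were the 2 lowest of the first table, the opposite of the 19 genes in which they were the 2 highest, but the numbers did not pass the threshold (limma adjusted p = 0.29). The related factors were expressed too, Tfe3 at 26.1 to 33.3 FPKM, Tfec at 9.04 to 14.7 FPKM and Mitf at 10.3 to 12.6 FPKM. Of these 3 Tfec differed between numbers, with 13.5, 12.3 and 9.54 FPKM with vehicle and a limma adjusted p of 0.028.

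The 8 genes with CACGTG in their promoter windows are set beside the others as a description. Their median log2 change with treatment was 0.05, against 0.04 for the 22 genes with a window but no match, and 0 of both sets were called. Between numbers the F-test called 2 of the 8, Gaa and Naglu, and 8 of the 22, against 12.7% of all genes, and the difference between the sets was not tested. Lamp1, with its 4 matches, and Mcoln1 and Gla, with 2 each, were not called by that test.

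Other genes of the pathway were counted in the same fits. None passed the threshold with treatment, with or without the block, among 14 cathepsins and legumain, 20 other hydrolases and activators, 20 other lysosomal membrane proteins, 18 vacuolar ATPase genes, 17 tested genes of the MiT/TFE factors and mTORC1 control, 13 of mannose 6-phosphate sorting and 18 of autophagy. Their median log2 changes were between 0.01 and 0.07. Between numbers the F-test called 11 of 14 cathepsin and legumain genes, which are the lysosomal proteases, against 12.7% of all genes. Of the 14, 9 were higher in number 1 than in number 3, against 6.78% of all genes, and 1, Ctsk, was lower, against 12%. Ctsl, a cathepsin with many protein substrates, had 292, 183 and 108 FPKM with vehicle, compared with 294, 196 and 115 FPKM with S100A8/A9.

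In the other lists the F-test called shares between 5% and 20%, where the share of all genes was 12.7%. It called 4 of 20 other hydrolases (among them Pla2g15 and Acp5), 1 of 20 other membrane proteins (Laptm4a), 1 of 18 vacuolar ATPase genes (Atp6v0d2), 2 of 17 of the MiT/TFE and mTORC1 list (Tfec and Fnip2) and 2 of 13 sorting genes (Sort1 and Ap1b1). Of 18 autophagy genes it called Sqstm1, the cargo receptor p62, which had the opposite order. Sqstm1 had 197, 265 and 345 FPKM with vehicle, compared with 205, 282 and 370 FPKM with S100A8/A9, the lowest in number 1.

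**Figure D5:**
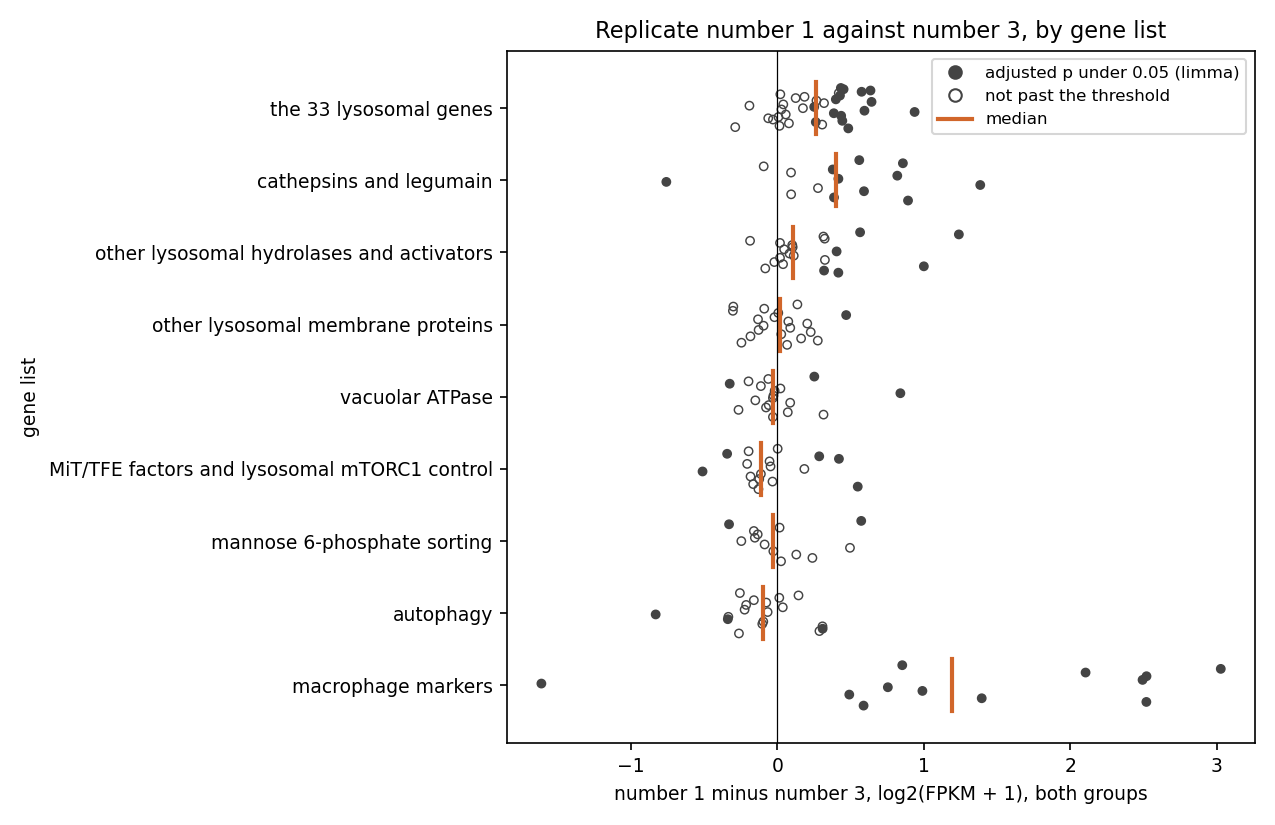
Difference of replicate number 1 from number 3 in log2(FPKM + 1), over both groups, for the genes of each list (points, filled where the limma adjusted p was under 0.05) with the list's median (orange bar). The median of the 33 lysosomal genes is 0.27, that of the cathepsins 0.40, that of the vacuolar ATPase -0.03 and that of the macrophage markers 1.19.

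Markers of other cells moved with the numbers too. Of 12 macrophage markers, 11 were called by the F-test, against 12.7% of all genes. In limma 11 were higher in number 1 than in number 3, against 6.78% of all genes, and 1, Cd14, was lower, against 12%. The same shares of all genes stand beside the counts of the other lists here, several of which hold few tested genes. The summed FPKM of the list was 1021, 722 and 633 in vehicle libraries 1, 2 and 3, compared with 1077, 775 and 720 in the treated ones. Apoe had 263, 106 and 27.8 FPKM with vehicle and Mrc1 75.0, 33.1 and 12.1 FPKM, again highest in number 1. Of 7 tested dendritic cell markers 5 were called, and 3 were higher and 3 lower in number 1 than in number 3. The 4 tested erythroid genes, all hemoglobins whose near-identical copies can share reads, were lower in number 1, with list sums of 3.21 and 4.59 FPKM in number 1 and 129 and 115 FPKM in number 3. Of 5 tested monocyte markers the F-test called Ccr2 and Plac8, and Plac8 was lower in number 1 than in number 3 by a limma adjusted p of 0.0011. The monocyte list summed to 92.2, 191 and 222 FPKM with vehicle, next to 142, 230.4 and 153 FPKM with S100A8/A9, lowest in number 1 in both groups. Gzma, 1 of 4 tested T and NK cell markers, was called and higher in number 1, and 0 of 3 tested osteoclast markers were called. Of 10 neutrophil markers 7 were under 1 FPKM in all 6 libraries, and the 2 tested were higher in number 1. Cd68 itself is widely used as a macrophage marker. The part of these cells in the order of the lysosomal genes was not tested.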

How the data were processed

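The authors deposited 1 expression value per Ensembl gene and library, taken here as FPKM because the values have that form and no header or label states the unit. The submitters' processing notes list DESeq2 1.34.0, HISAT2, Subread and featureCounts with the mm10 build, and give no role for each. Per the labels' protocols, poly(A) RNA was reverse transcribed with random priming, and no strand marking is stated. Low deposited FPKM values of replicate 4 (up to 20 reads) came out as whole reads, within 0.01 of a read, in 98.5% of cases for vehicle and 98.8% for S100A8/A9. Coordinates and exon overlaps come from GENCODE on mm10, and promoter sequences from RefSeq on GRCm38.p6.

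FPKM were used as deposited. limma 3.58.1 in R 4.3.3 (limma-trend) was fitted to log2(FPKM + 1) for the 11387 genes that reached 1 FPKM in 3 or more of the 6 libraries of replicates 1 to 3. All 33 lysosomal genes passed. Fold changes on this scale understate those of low genes. Tests were two-sided with Benjamini-Hochberg adjustment over all genes tested and a threshold of 0.05. The treatment test had group as its term. Alternatives changed the pseudocount, the filter, the scaling, the block and the libraries entered. The fits were run on simulated data with planted changes and noise drawn independently for each gene. Only the median size of the recovered changes decided that check, so it says nothing of false calls in these libraries.

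The groups share replicate numbers. Deviations from the group means correlated at 0.595, 0.254 and 0.52 between libraries of the same number and at -0.531 to -0.01 between different numbers. The numbers were therefore taken to pair the libraries, and blocked values are printed beside. No 2 libraries were identical, and their correlations of log2(FPKM + 1) were 0.985 to 0.993 in the first table and 0.993 in the second.

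The 33 genes, the gene lists and the tests were chosen with earlier results of these data known. Values in every library are given for genes called in any fit, the 5 highest and 5 lowest, the 3 largest rises and falls in log2 change, and Lamp1, Tfeb, Cd68 and Ifi30. Genes of other lists are named where they were called or stand for a marker list.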

Additional observations from a re-analysis of the deposited data

How the results depend on the processing

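No lysosomal gene was called by treatment under any of the 24 alternatives (18 planned, 6 chosen after seeing the data), and the smallest adjusted p in limma was 0.424. Between 0 and 16 of the genes changed the sign of their uncalled change. Genes called by treatment over all genes were 0 without and 59 with the replicate block. With the block they were 62 at a pseudocount of 0.1, 79 at a filter of 5 FPKM, 39 with FPKM brought to the same sum per library, and 3 each with median-of-ratios factors and with quantile normalization. Leaving out single libraries without the block gave 0 to 1, and leaving out 1 pair with the block gave 42 (without pair 1), 95 (without pair 2) and 5 (without pair 3). The median change of the 33 genes then lay between -0.04 and 0.13. The replicate number test called 1450 genes and 11 lysosomal genes. Without the filter on low values it called 18 and 0, a loss whose cause was not tested. Without number 1 it called 314 and 0, without number 3 526 and 9, and without number 2 1833 and 12, so no lysosomal call was made without number 1. The other pseudocount, filter and scalings called 10 to 14 lysosomal genes. The depth of replicates 1 to 3 is unknown, so no count error could be given.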
